A study of Mustela putorius furo and Mus musculus with 4 samples.

Results

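The subject here was a set of 9 transcription factors that govern how neural progenitors turn into glia: the NFI factors Nfia, Nfib, Nfic and Nfix, the basic helix-loop-helix factors Olig1 and Olig2, the zinc finger factor Zbtb20, the homeodomain factor Nkx2-2 and the stress-induced factor Atf3. They were chosen by gene symbol, and the level of each was read in 2 libraries of cultured ferret astrocytes and 2 libraries of cultured mouse astrocytes. All 9 had a mouse value, and 8 of them, every factor except Olig1, also had a ferret value. Those 8 stood among 13373 gene symbols found in both species. All 8 were among the 10204 symbols tested, which had a mean of at least 1 FPKM in at least one species. Nkx2-2 passed this limit through its ferret values alone, as both mouse values lay under 1.

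The ferret cells (Mustela putorius furo, normally pigmented sable animals) came from cerebral cortices at P1, and the mouse cells (Mus musculus, strain ICR, wild type) from cortices at P1 to P3, where P counts days after birth. Cells of both species were expanded for 14 days in medium with 10% fetal bovine serum, shaken for 12 h to remove loosely attached cells, replated, and then kept in serum-free medium containing heparin-binding EGF-like growth factor before RNA was taken. No gene was manipulated in either group. Mouse flasks pooled several pups, whereas cells of a single ferret pup filled several flasks. The sources used here do not say whether the duplicate libraries of a species came from separate cultures, so p-values measure only the spread between these libraries, which may be technical. Species, gene annotation and culture cannot be told apart in this design.

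In the developing cortex, NFI proteins bind DNA as dimers and act with SOX9 at the start of gliogenesis, when they switch on astrocyte genes such as Gfap and hold back progenitor programmes. OLIG2 and its close relative OLIG1 direct progenitors towards oligodendrocytes, and OLIG2 is also present in astrocyte precursors. ZBTB20 favours astrocyte over neuron production. NKX2-2 acts with OLIG2 as oligodendrocyte precursors differentiate, and also patterns the ventral neural tube. ATF3 is a bZIP protein that is induced by many kinds of cell stress and is best known in the nervous system from injured neurons.

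Levels are given as FPKM, a fragment count divided by exon length and by the mapped fragments of the library, which corrects for transcript length and so permits genes to be compared within a species. The study also lists read counts, which were not used here, and FPKM alone keeps no absolute depth. Steps between the lowest values gave only the relative depth within a species, 1.17 for ferret replicate 1 over replicate 2 and 0.835 for the mouse pair. Duplicates lay close together, with a median absolute log2 difference of 0.081 between ferret and 0.065 between mouse libraries over the tested genes. The 13373 shared symbols summed to between 227391 and 236543 FPKM in ferret and between 300465 and 308121 FPKM in mouse libraries. Differences between species were tested with limma on log2(FPKM + 1) and are given as ferret minus mouse. This scale understates the change of genes with low values. Over all tested genes the median was -0.35 rather than 0, and it moved to -0.01 when libraries were rescaled to the same sum and to 0.06 after quantile normalization. A gene was called when its Benjamini-Hochberg adjusted p was under 0.05 and its absolute log2 difference exceeded 1. A gene with a mean of at least 1 FPKM in a single species could be called only in the direction of that species.

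Of the 8 regulators tested, 1 was called higher in ferret astrocytes (Nkx2-2) and 2 were called lower (Zbtb20 and Atf3). The 3 calls compare with 43.2% of all tested genes called in either direction, with 13.1% called higher and 30.1% called lower in ferret. At the adjusted p alone, 7 of the 8 differed, against 88.6% of all tested genes. Under each of the 3 other scalings tried all 8 did, but the share of all genes under these was not computed. The FPKM of the species did not overlap for 7 of the 8 regulators, against 94.1% of all tested genes. The number of regulators that differed therefore did not set them apart from the other genes. Their median log2 difference was 0.19, beside -0.35 for all tested genes.

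**Figure D1:**
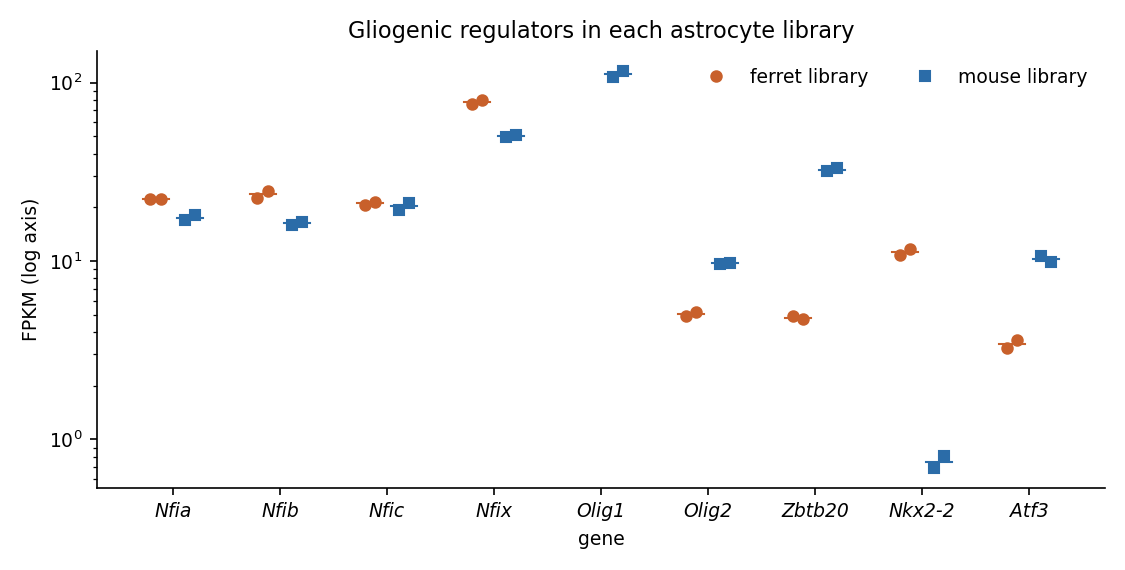
FPKM (log axis) of the 9 regulators in each ferret library (circles) and mouse library (squares), with a short line at the mean of the 2 libraries of a species. Olig1 has mouse values only. Zbtb20, Olig2 and Atf3 lie lower in ferret, Nkx2-2 lies higher, and the 4 NFI genes stand between 16.0 and 80.4 FPKM in every library.

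The order of the levels differed between species. In ferret astrocytes Nfix was highest, followed by Nfib, Nfia, Nfic, Nkx2-2, Olig2, Zbtb20 and Atf3. The duplicate values of neighbours in this order did not overlap, except for Olig2 and Zbtb20, whose ferret values interleaved. In mouse astrocytes Olig1 was highest, followed by Nfix, Zbtb20, Nfic, Nfia, Nfib, Atf3, Olig2 and Nkx2-2, and here no neighbours overlapped. Zbtb20 thus stood at position 3 of 9 factors in mouse and 7 of 8 in ferret, and Nkx2-2 at position 9 in mouse and 5 in ferret.

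Of the NFI genes, 3 were higher in ferret astrocytes at the adjusted p with FPKM as deposited, by less than the limit for a call, and Nfix was the most abundant of the family in both species. Nfix stood at 76.4 and 80.4 FPKM in the ferret pair and at 49.4 and 50.6 FPKM in the mouse pair. Both ferret values lay above both mouse values. On the log2(FPKM + 1) scale the difference was 0.64 ± 0.058 (SE, 95% interval 0.51 to 0.77), with an adjusted p of 2.94e-06 in the limma fit, under the limit of 1 for a call. With libraries rescaled to their mean sum it was 1.02, and rescaled to a sum of 1000000 it was 1.04, so that Nfix was called higher under both. Among the shared symbols Nfix ranked at the percentiles 96.2 and 96.3 in ferret and at 90.7 and 90.8 in mouse.

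Nfib, which like Nfia is required for the normal appearance of cortical glia, had 22.6 and 24.8 FPKM in ferret and 16.0 and 16.5 FPKM in mouse astrocytes. The log2 difference was 0.52 ± 0.068 (SE), with an adjusted p of 4.99e-05 in the limma fit. Nfia stood at 22.3 and 22.1 FPKM in ferret and at 16.9 and 18.1 FPKM in mouse, and its log2 difference was 0.33 ± 0.064 (SE), with an adjusted p of 8.26e-04 in the limma fit. Ferret values of both genes lay above the mouse values, and neither reached the limit for a call under any alternative tried. The intervals of these differences, 0.36 to 0.67 for Nfib and 0.18 to 0.47 for Nfia, lie below a change of 1 on the log2 scale.

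Nfic, the family member that is broadly expressed outside the nervous system, was the one regulator whose species overlapped. Its level was 20.7 and 21.4 FPKM in ferret and 19.3 and 21.2 FPKM in mouse astrocytes. The log2 difference was 0.05 ± 0.068 (SE, 95% interval -0.10 to 0.21), with an adjusted p of 0.477 in the limma fit. Without mouse replicate 1 the sign turned, to -0.01. Under the 3 other scalings Nfic was higher in ferret at the adjusted p in the limma fit. The log2 difference was 0.43 with libraries rescaled to their mean sum (adjusted p of 2.72e-04), 0.44 with a sum of 1000000 (adjusted p of 3.08e-04) and 0.44 after quantile normalization (adjusted p of 2.92e-04). Relative to the median of all tested genes, the log2 differences of the NFI genes were 0.40 for Nfic, 0.68 for Nfia, 0.87 for Nfib and 0.99 for Nfix with FPKM as deposited.

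The proportions within the family are not changed by a constant factor applied to a library, as in the rescalings to a common sum. Summed over the 4 genes, NFI expression came to 142 and 149 FPKM in the ferret pair, against 102 and 107 FPKM in the mouse pair. Nfix made up 53.8% and 54.1% of this sum in ferret and 48.6% and 47.5% in mouse. Nfic made up 14.6% and 14.4% in ferret and 19.0% and 19.9% in mouse, the opposite shift. Nfia differed less, at 15.7% and 14.9% in ferret against 16.6% and 17.0% in mouse. Nfib was at 15.9% and 16.7% in ferret and 15.8% and 15.5% in mouse. For every NFI gene the shares of the species did not overlap. With 2 libraries a species, the smallest p that an exact permutation test can give is 0.333 (two-sided). All 4 shares had this value, or 0.370 after adjustment over the 10 shares and ratios compared. The ratio of Nfix to Nfic was 3.69 and 3.77 in ferret and 2.56 and 2.38 in mouse astrocytes. Gene models of the ferret enter these shares, and their part in the shift was not tested.

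**Figure D2:**
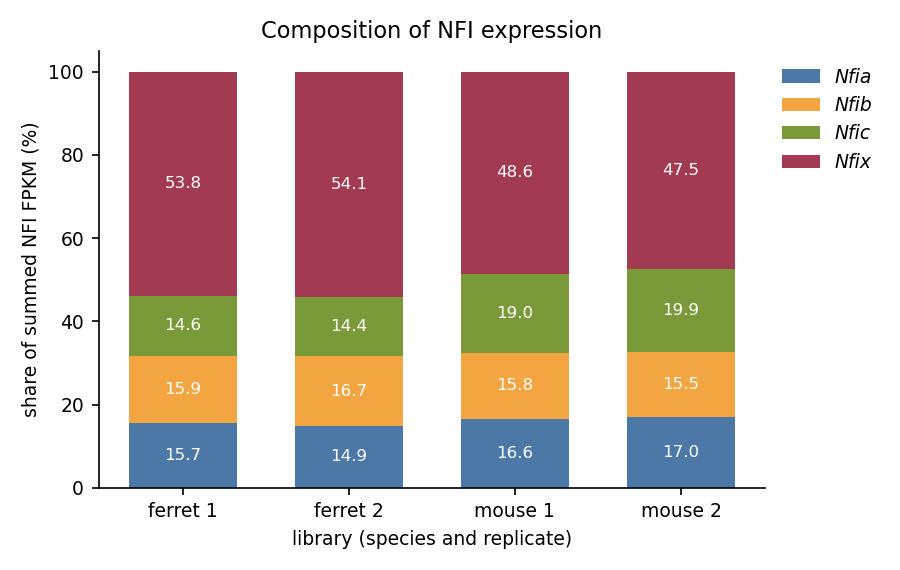
Share (%) of each NFI gene in the summed FPKM of Nfia, Nfib, Nfic and Nfix, with 1 bar for each ferret and mouse library. Nfix takes 53.8% and 54.1% in ferret and 48.6% and 47.5% in mouse, and Nfic takes 14.6% and 14.4% against 19.0% and 19.9%.

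On GRCm38, mouse Nfia lies on chromosome 4 from 97772734 to 98118874 on the plus strand, and Nfib on the same chromosome from 82290173 to 82705750 on the minus strand. Nfic lies on chromosome 10 from 81396186 to 81455635 and Nfix on chromosome 8 from 84699876 to 84800344, both on the minus strand. GENCODE places E130114P18Rik on the strand opposite to Nfia, and this gene had 12.0 and 13.3 FPKM in the mouse libraries. Lyl1, on the strand opposite to Nfix, had 2.53 and 2.92 FPKM. The library kit keeps the strand, but the strand setting of the quantification is not given in the sources used here, so fragments of the overlapping stretches may have been shared between partners.

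Olig2 was lower in ferret astrocytes without reaching the limit for a call. It stood at 4.92 and 5.18 FPKM in the ferret pair and at 9.62 and 9.80 FPKM in the mouse pair. The log2 difference was -0.82 ± 0.071 (SE, 95% interval -0.98 to -0.66), with an adjusted p of 1.85e-06 in the limma fit. Relative to the median of all tested genes it was -0.47, and it was -0.41 after quantile normalization. Sox9, the partner of NFIA in glial specification, had a log2 difference of -0.89, at 17.0 and 18.3 FPKM in ferret and 32.6 and 34.4 FPKM in mouse astrocytes. The ratio of Olig2 to Sox9 was 0.289 and 0.284 in ferret and 0.295 and 0.285 in mouse libraries. These ratios overlapped between species (exact permutation p = 0.667, two-sided, unchanged by adjustment over the 10 shares and ratios). In bulk libraries, fewer cells that express a gene and less RNA per cell cannot be told apart.

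Olig1 was the most abundant of the 9 regulators in mouse astrocytes, at 107 and 117 FPKM. These values placed it at the percentiles 96.7 and 97.0 of the shared symbols in the mouse libraries. It exceeded Olig2 by a factor of 11.2 and 11.9 in the same libraries. Ferret Olig1 was not analysed here, so the OLIG genes can be compared between species for Olig2 alone. Olig3, which acts in the dorsal hindbrain and spinal cord, is listed at 0 in all 4 libraries. The OLIG genes of the mouse neighbour each other on chromosome 16 of GRCm38. Olig2 runs from 91225457 to 91228677 and Olig1 from 91269772 to 91271933, both on the plus strand, with 41094 bases between them. Olig1 is annotated as a single exon.

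Zbtb20 showed the largest decrease in ferret astrocytes among the 8 regulators. It stood at 4.93 and 4.72 FPKM in the ferret pair and at 31.8 and 33.3 FPKM in the mouse pair, so that the mean FPKM of the mouse was 6.75 times that of the ferret. The log2 difference was -2.53 ± 0.066 (SE), with an adjusted p of 4.06e-10 in the limma fit, and it stayed between -2.73 and -2.14 under the alternatives tried, with a call in each. Its rank fell from the percentiles 84.5 and 84.9 of the shared symbols in mouse to 50.7 and 49.6 in ferret. The mouse gene spans 766722 bases of chromosome 16, from 42875881 to 43642602 on the plus strand. GENCODE gives it 21 transcripts whose exons merge to 30730 bases, by far the longest exonic sequence of the 9 genes. Ferret gene models were not analysed here. FPKM divides by the modelled length, and the part of the gene models in these differences was not tested.

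Nkx2-2 went the other way and was the regulator with the largest difference. It stood at 10.8 and 11.6 FPKM in the ferret pair and at 0.692 and 0.808 FPKM in the mouse pair, a ratio of mean FPKM of 15.0. On the log2(FPKM + 1) scale the difference was 2.81 ± 0.079 (SE, 95% interval 2.63 to 2.98), with an adjusted p of 6.34e-10 in the limma fit. Because the mouse values are low, the size depended on the pseudocount, and the log2 difference was 3.74 with a pseudocount of 0.1. It was called higher in ferret under each alternative. Ferret astrocytes contained 2.203 and 2.241 times as much Nkx2-2 as Olig2 by FPKM, whereas the ratio was 0.072 and 0.082 in the mouse libraries. The antisense gene Nkx2-2os overlaps Nkx2-2 on chromosome 2 of GRCm38, where Nkx2-2 runs from 147177546 to 147194243 on the minus strand, and had 0.015 and 0.012 FPKM in the mouse libraries.

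Atf3 was lower in ferret astrocytes. It stood at 3.27 and 3.62 FPKM in the ferret pair and at 10.7 and 9.86 FPKM in the mouse pair, and the values did not overlap. The log2 difference was -1.34 ± 0.079 (SE, 95% interval -1.52 to -1.17), with an adjusted p of 1.03e-07 in the limma fit. After quantile normalization it was -0.92, past the adjusted p but short of the limit of 1, so the call was lost. The mouse gene occupies positions 191170296 to 191218039 of chromosome 1 (GRCm38, minus strand).

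**Figure D3:**
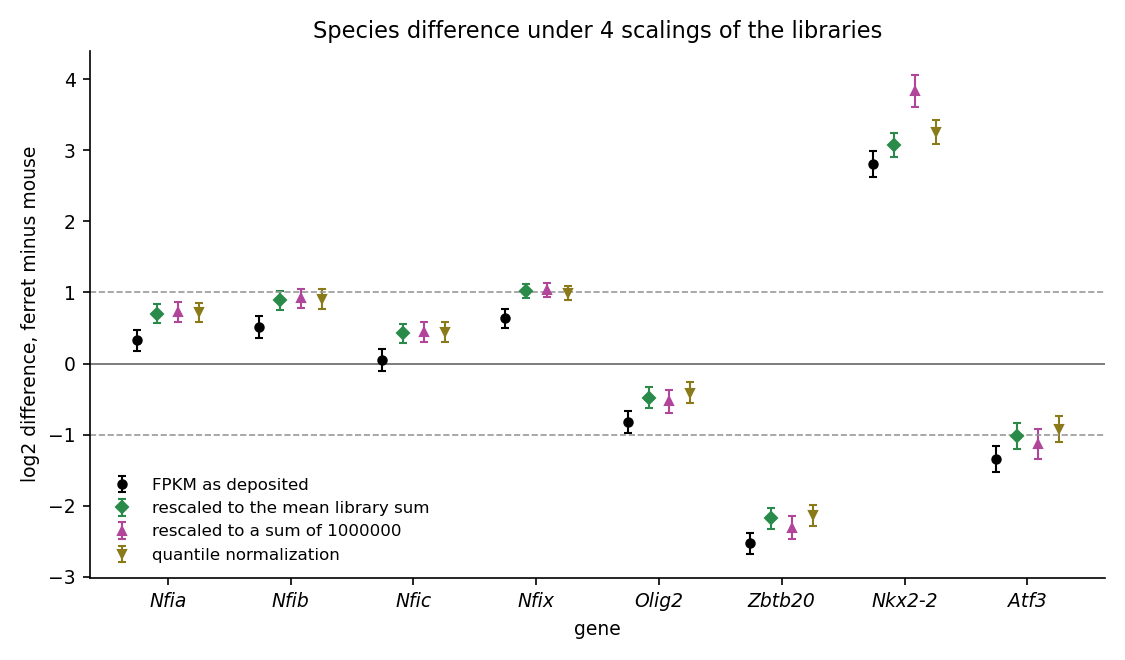
Log2 difference (ferret minus mouse, on the log2 scale with a pseudocount of 1) of the 8 tested regulators, with 95% intervals from limma, for FPKM as deposited and after 3 other scalings of the libraries. Dashed lines mark the limit of 1 in either direction. Zbtb20 and Nkx2-2 stay beyond it under each scaling, Nfix reaches 1.02 and 1.04 after the rescalings to a common sum, and Atf3 falls short of it after quantile normalization, at -0.92.

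Genes that NFI factors are linked to in astrocytes were mostly lower in ferret astrocytes, while 3 of the 4 NFI genes were higher at the adjusted p with FPKM as deposited. Of a list of 16 such genes, 15 were tested, 12 were called lower in ferret and 1 was called higher, beside 30.1% and 13.1% of all tested genes. The median log2 difference of the list was -1.82, beside -0.35 for all tested genes. With libraries rescaled to their mean sum or quantile-normalized, 10 genes were called lower, beside 2215 and 2040 of all 10204 tested genes. The part of NFI factors in the levels of these genes was not tested. Atp1b2, a sodium pump subunit, had 6.03 and 5.43 FPKM in ferret and 445 and 480 FPKM in mouse astrocytes. Slc1a2, a glutamate transporter, had 0.133 and 0.178 FPKM in ferret and 47.1 and 51.8 FPKM in mouse astrocytes. Mmd2 and Zcchc24, genes described as joint targets of SOX9 and NFIA, were both called lower, with log2 differences of -2.17 and -1.67. Apcdd1, a further gene of that kind, was under 1 FPKM in all 4 libraries and was not tested. Gfap, the best known NFI-regulated astrocyte gene, had 1481 and 1522 FPKM in ferret and 1429 and 1546 FPKM in mouse astrocytes, and its values overlapped (log2 difference 0.01, adjusted p = 0.841 by limma). Under the other scalings Gfap moved towards the ferret, to at most 0.72 on the log2 scale. S100b, an astrocyte calcium-binding protein, was the gene called higher, with a log2 difference of 2.01. All 9 astrocyte markers examined had values above 0 in every library. This does not test the astrocyte label, since the neuronal marker Map2 also had values above 0 in every library. Of these markers 1 was called higher and 5 lower in ferret, with summed levels of 3576 and 3674 FPKM in ferret and 3211 and 3478 FPKM in mouse libraries. Most of this sum came from Gfap and Aldoc, and without them the other 7 markers summed to 475 and 452 FPKM in ferret and 866 and 918 FPKM in mouse. All of the 9 markers except Aldoc and Sox9 also belong to the NFI-linked list, so both counts share every marker that was called.

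Of 40 listed transcription factors and signalling genes that act alongside the regulators 33 were tested, 7 were called higher and 9 lower in ferret astrocytes, and 17 were not called. The median log2 difference was -0.25. Of all tested genes, 13.1% were called higher and 30.1% lower. Under the rescalings and quantile normalization 8 were called higher and between 6 and 8 lower. Of all 10204 tested genes, between 1954 and 2197 were then called higher and between 2040 and 2536 lower. E proteins, the dimer partners of OLIG2, differed in direction. Tcf4 was called lower, at 23.4 and 22.2 FPKM in ferret and 120.7 and 134 FPKM in mouse. Tcf12 was called higher, at 66.8 and 69.3 FPKM in ferret and 29.1 and 31.1 FPKM in mouse. Tcf3 was called lower, with a log2 difference of -1.64. Sox10 had the largest difference of the list, at 4.54 on the log2 scale, followed by Tcf4, then Fosl1, a member of the AP-1 family (2.32), and Runx2, a Runt-domain factor (2.198). The Notch signalling genes Rbpj and Notch1 were not called, with log2 differences of 0.01 and 0.06, which became at most 0.41 and 0.45 under the other scalings.

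Markers of the oligodendrocyte lineage, in which OLIG2, NKX2-2 and SOX10 act together, were higher in ferret wherever they were called, as Nkx2-2 was and Olig2 was not. Of 20 listed markers 11 were tested, 5 were called higher and 0 lower in ferret astrocytes, beside 13.1% and 30.1% of all tested genes. Of those called, Sox10, Gpr17 and Bcas1 passed the limit of 1 FPKM through their ferret values alone, so they could not be called lower. The median log2 difference of the list was 0.87. With libraries rescaled to their mean sum 8 were called higher, and 9 after quantile normalization, beside 1954 and 2107 of all 10204 tested genes. Summed over the 16 markers with values in both species, the level was 180 and 199 FPKM in ferret and 66.8 and 66.1 FPKM in mouse libraries. Cnp alone, not called with FPKM as deposited, gave 79.95 and 92.03 FPKM of this in ferret and 45.56 and 47.65 FPKM in mouse. Sox10 had 26.3 and 30.9 FPKM in ferret and 0.231 and 0.304 FPKM in mouse astrocytes. The myelin gene Mbp and the early myelination gene Bcas1 had log2 differences of 3.26 and 1.63. Gpr17, a receptor of committed precursors, had 1.41 and 1.53 FPKM in ferret and 0.106 and 0.083 FPKM in mouse astrocytes. Cspg4, which encodes the NG2 proteoglycan of oligodendrocyte precursors, was not called, at 1.04 and 1.17 FPKM in ferret and 2.00 and 1.81 FPKM in mouse. Myrf, a factor of myelinating cells, was not called either, with a log2 difference of -0.08. Opalin is listed at 0 in both ferret libraries and at 0.017 and 0 FPKM in the mouse libraries. The part of oligodendrocyte lineage cells in the level of Nkx2-2 was not tested.

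A list of 11 NKX and ventral patterning genes also holds patterning genes that are not ventral factors, such as Pax6, Dbx2 and Irx3. From this list 7 genes were tested, and 1 was called higher and 3 lower in ferret, beside 13.1% and 30.1% of all tested genes. The list had a median of -0.91 on the log2 scale. Nkx2-1 was the only listed NKX gene tested, so the median does not describe ventral factors. After rescaling to the mean library sum 2 were called higher and 1 lower, beside 1954 and 2215 of all 10204 tested genes. Nkx2-1, a factor of the ventral forebrain, had 2.29 and 1.49 FPKM in ferret and 0.070 and 0.024 FPKM in mouse astrocytes and was called higher. Dbx2, a homeodomain factor of the neural tube, had 0.683 and 0.866 FPKM in ferret and 7.44 and 11.4 FPKM in mouse astrocytes and was called lower. Gli2 and Gli3, which transmit Hedgehog signals, were called lower with log2 differences of -1.08 and -1.05. Gli3 lost the call under each of the 3 other scalings, and Gli2 kept it under 1 of them. Pax6 was not called, with a log2 difference of 0.19. Irx3 was not called either with FPKM as deposited, at 0.89, but was called higher under each of the 3 other scalings.

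Of 29 listed genes of the bZIP and stress response, to which Atf3 belongs, 24 were tested, 5 were called higher and 9 lower in ferret, beside 13.1% and 30.1% of all tested genes, and the list had a median of 0.03 on the log2 scale. After quantile normalization 6 were called higher and 5 lower, beside 2107 and 2040 of all 10204 tested genes. Ddit3, which encodes the stress factor CHOP, was called lower together with Atf3, at 4.23 and 4.82 FPKM in ferret and 32.6 and 30.6 FPKM in mouse. Atf5, another bZIP factor, had 3.29 and 4.03 FPKM in ferret and 63.8 and 66.9 FPKM in mouse astrocytes. Atf1 was called lower as well, with a log2 difference of -2.45. Ppp1r15a, Gadd45a, Gadd45b and Egr1, which are likewise induced by stress or stimulation, were called higher, with log2 differences of 2.21, 1.05, 1.29 and 1.14. Junb, an AP-1 subunit, was called higher too, with 18.2 and 19.2 FPKM in ferret, and is listed at 0 in both mouse libraries. As an exact 0 can be a failed estimate, no fold is given for it. Fos and Trib3 were not called, with log2 differences of -0.06 and 0.11.

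**Figure D4:**
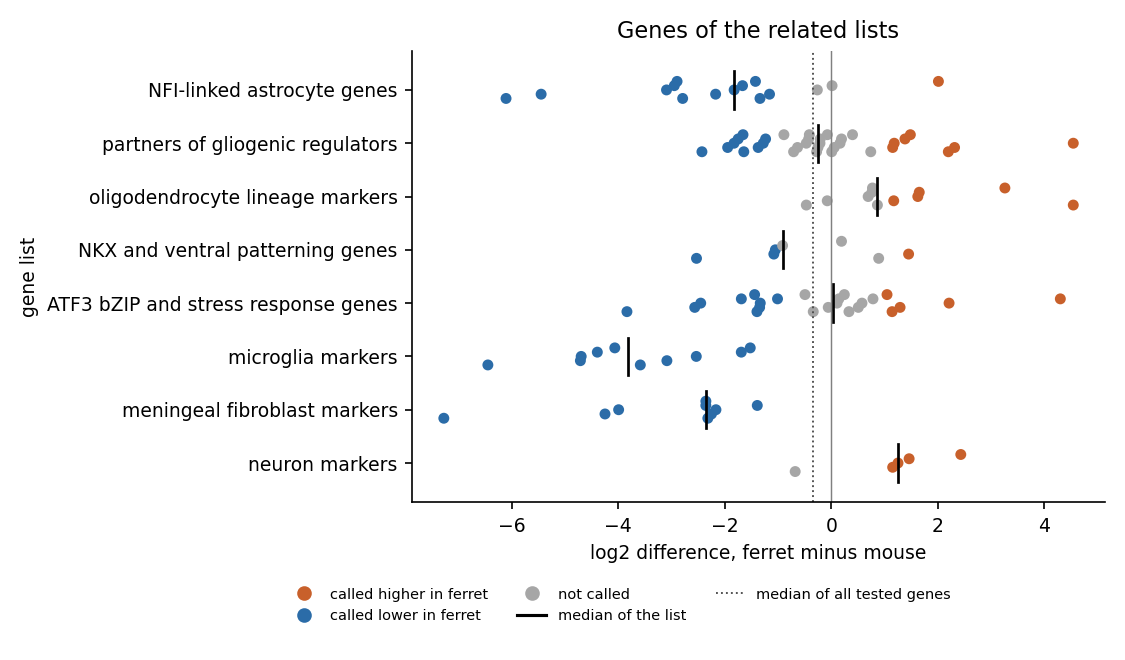
Log2 difference (ferret minus mouse) of each tested gene in 8 lists related to the regulators or to other cell types, on the log2(FPKM + 1) scale. Colours mark genes called higher, called lower or not called, black lines mark the median of a list, and the dotted line marks the median of all tested genes at -0.35. NFI-linked astrocyte genes have a median of -1.82 and oligodendrocyte lineage markers one of 0.87.

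Markers of other cell types also differed between the cultures. All 10 microglial markers were called lower in ferret astrocytes, beside 30.1% of all tested genes. Most of them passed the limit of 1 FPKM through their mouse values alone, so they could be called only lower. The 10 markers summed to 8.74 and 7.87 FPKM in ferret and 358 and 347 FPKM in mouse libraries. Cx3cr1 was at 0 in both ferret libraries. All 9 meningeal fibroblast markers tested, of 10 listed, were called lower, beside 30.1% of all tested genes. Some of these had a ferret mean under 1 FPKM as well. The listed fibroblast markers summed to 127 and 112 FPKM in ferret and 884 and 844 FPKM in mouse. Of 12 neuronal markers 5 were tested and 4 were called higher in ferret, beside 13.1% of all tested genes. Most of those called had mouse values under 1 FPKM and could be called only higher. The neuronal sums of 32.7 and 33.8 FPKM in ferret and 32.6 and 33.7 FPKM in mouse included Map2, which had 18.8 and 19.0 FPKM in ferret and 30.4 and 31.3 FPKM in mouse and was not called. Without Map2 the other 8 markers summed to 13.9 and 14.8 FPKM in ferret and 2.21 and 2.45 FPKM in mouse. The part of these cells in the levels of Zbtb20, Atf3, Olig2 and the NFI genes was not tested.

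For each regulator, the 2 genes with the most similar values over the 4 libraries were found by the Euclidean distance in log2(FPKM + 1) among 10203 other tested genes. The nearest to Nfia were Itch (distance 0.036) and Nsf (0.055), and those nearest to Nfib were Arhgef7 (0.066) and Ncdn (0.067). Nfic lay closest to Dgcr2 (0.105) and Lonp1 (0.106), and Nfix to Rnf11 (0.081) and Cdk16 (0.087). Olig2 was matched most closely by Ccdc130 (0.096) and Mapk8 (0.1004), and Zbtb20 by Mgat1 (0.099) and Mcam (0.121). Ccdc15 (0.145) and Zcchc12 (0.151) resembled Nkx2-2 most, and Cry2 (0.072) and Bri3bp (0.099) resembled Atf3 most. With 2 libraries per species, this measure reflects little more than the 2 species levels of a gene.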

How the data were processed

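RNA-seq of 2 ferret and 2 mouse astrocyte libraries was examined, prepared by the authors with a stranded polyA kit. The authors aligned reads with STAR (2.7.0f) to the Ensembl genome of each species and deposited FPKM per gene from Cufflinks (2.2.1). FPKM hold no counts and give no absolute depth, the read counts that the study lists elsewhere were not used here, and the number of libraries limits the precision. The strand setting is not given in the sources used here.

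Symbols were matched without regard to case. For a symbol with several rows the row with the highest mean was used, which applied to no member. Genes whose FPKM averaged 1 or more in one species were compared with limma (3.58.1, R 4.3.3, empirical Bayes with a trend) on log2(FPKM + 1) across 10204 genes. On simulated data for this comparison with 10204 genes, 200 genes picked among those of higher mean were raised by 1.5 in ferret. Of these 100% were called, and 0 unchanged genes. The simulation had normal noise, no shift common to all genes and far fewer changed genes than were called in the data. It therefore checks only that the fit runs as intended and gives no error rate for these data. Shares and ratios were compared by exact permutation.

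The members and lists were chosen with earlier results of these data known. Named were all members, up to 4 called genes with the largest and 2 tested genes with the smallest absolute difference in each list, and the 2 nearest genes of each member. A gene that this rule names is not reported here. Further list genes were chosen after their values were seen (Sox9, Tcf3, Tcf12, Mmd2, Zcchc24, Apcdd1, Gpr17, Opalin, Cx3cr1, Pecam1, Ppp1r15a, Gadd45a, Gadd45b, Egr1). Mouse coordinates come from GENCODE M21, whose build (GRCm38) is that of the deposited values. Alternatives were a pseudocount of 0.1, no filter, rescaling to the mean library sum or to 1000000, quantile normalization, a replicate block, summed rows and each library left out.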

Additional observations from a re-analysis of the deposited data

How the results depend on the processing

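Genes called higher in ferret rose from 1336 to 2197 with libraries rescaled to a sum of 1000000 and to 2107 after quantile normalization, which also reduced genes called lower from 3069 to 2040. Rescaling to the mean library sum gave 1954 higher and 2215 lower, and a pseudocount of 0.1 gave 1579 and 3433. Because the deposited sums differ from 1000000, that rescaling also alters the weight of the pseudocount. Regulators called higher rose from 1 to 2 under both rescalings, as Nfix reached 1.02 and 1.04, and regulators called lower fell from 2 to 1 after quantile normalization, as Atf3 moved to -0.92. These scalings move the median of all genes towards the ferret. The log2 difference of Nfic was -0.013 without mouse replicate 1 and lay between -0.01 and 0.12 when each library was left out. Over the libraries left out in turn, Nkx2-2 stayed between 2.76 and 2.85, Zbtb20 between -2.56 and -2.49 and Nfix between 0.60 and 0.67, and the Nfix share difference between 5.34 and 6.41 percentage points. The replicate numbers come from the labels alone and the species share no animals, and deviations of same-numbered libraries had a correlation of 0.00995 over genes. With the replicate block 1342 genes were called higher and 3072 lower, and 1 regulator higher and 2 lower. For the counts, the 8 regulators and the NFI shares, 164 of the 174 values recomputed under an alternative kept their direction and side of the threshold, or stayed within 1.5 times for counts and within the replicate spread for shares, and the other 10 are those given above. Under the 3 other scalings Nfic stayed under the limit of 1, and its adjusted p fell below 0.05. Olig1 had no ferret value, so no alternative was run for it.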

Other observations

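Of 8 endothelial markers 2 were tested and both were called lower in ferret astrocytes, beside 30.1% of all tested genes. Cdh5, an adhesion protein of endothelial junctions, stood at 22.0 and 22.5 FPKM in mouse, and its ferret values are both 0, as are those of Tek, so both calls rest on exact zeros, which can be failed estimates, and Tek kept its call under 2 of the 3 other scalings. Pecam1 stood at 0.041 and 0.031 FPKM in mouse. Of 6 ependymal markers 3 were tested and 1 was called lower, beside 30.1% of all tested genes. Rsph1, a component of motile cilia, had 0.949 and 0.715 FPKM in ferret and 18.9 and 20.8 FPKM in mouse astrocytes and was called lower. Foxj1, the master factor of motile cilia, had 22.0 and 21.3 FPKM in ferret and 41.8 and 44.0 FPKM in mouse, with a log2 difference of -0.95 that was not called.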
